A study of Mus musculus with 15 samples.

Results

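R1 and NmB6D2 are mouse embryonic stem (ES) cell lines with both a maternal and a paternal genome, and this comparison sets the 3 arrays of R1 against the 3 arrays of NmB6D2. They are 6 of the 15 arrays of a study of 5 ES lines, chosen by their titles alone. R1 is a purchased line whose embryo came from a cross of 2 inbred substrains, 129S1/SvImJ and 129X1/SvJ. NmB6D2 was made from embryos of C57BL6 females mated naturally with DBA2 males. The remaining lines, OpB6D2, FpB6D2 and FpB6CBA, are parthenogenetic, meaning that their embryos came from activated oocytes with no sperm, and they appear here only as levels beside the other values. The oocytes of OpB6D2 were ovulated ones of B6D2F1 females, whereas those of FpB6D2 and FpB6CBA were grown in follicle culture from B6D2F1 and B6CBAF1 females. Total RNA was hybridised to Affymetrix Mouse Genome arrays, and a level is the log2 intensity of a gene's probe set. No age, passage or culture medium is given in the sources used here, nor whether feeder cells were present.

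Each line stands for 1 derivation. Strain, derivation and line therefore cannot be told apart, and neither can a difference in RNA level and a base difference between strains under a probe. Nothing says that the arrays of a line came from separate cultures, so p-values measure the spread between arrays, which may be technical. In bulk RNA, fewer cells of a type and less RNA per cell cannot be told apart.

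ES cells are held in a naive pluripotent state by a network of transcription factors around Pou5f1, Sox2 and Nanog, and the cytokine LIF sustains them through Stat3. FGF signals help to move cells out of that state into an epiblast-like state. Wnt, BMP, Nodal and FGF signals then act in the formation of the primitive streak, the source of mesoderm and definitive endoderm. Cultures of ES cells commonly hold some cells that have started along such a path. Inbred strains are known to differ in how readily their embryos give ES lines.

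The ES cell markers Pou5f1, Sox2 and Nanog were high in both lines and were not called between them. Pou5f1 had 11.69, 11.61 and 11.82 on the R1 arrays, against 11.47, 11.51 and 11.38 on the NmB6D2 arrays (log2 difference 0.25 ± 0.06 SE, adjusted p = 0.0018 by limma). Nanog had 11, 10.92 and 11.01 in R1, against 10.49, 10.43 and 10.37 in NmB6D2, and Sox2 differed by 0.30. Eif2s3y, a Y-linked translation factor gene, had 8.0, 7.93 and 8.03 in R1, against 8.65, 8.78 and 8.41 in NmB6D2, while its means in OpB6D2, FpB6D2 and FpB6CBA were 3.35, 2.78 and 2.73. Both biparental lines thus carried Y-linked RNA. Xist, made by an inactive X chromosome, averaged 4.76 ± 0.28 in R1 and 4.57 ± 0.16 in NmB6D2 (SD, n = 3 each).

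Of 18193 genes on the array, 12813 were tested, those with 3 or more of the 15 arrays at or above 3.864 (the median of the whole table). A gene low in 1 line could pass through the other, so the counts given for lists below describe them and no more. Calls needed an adjusted p under 0.05 (limma, Benjamini-Hochberg) and at least a 2-fold difference between the lines. Differences given after a gene's name are log2 values, R1 minus NmB6D2, and a fold written as at least is computed against 3.864, because the lower line's mean lay below it. By that rule 1651 genes (12.9%) were called, 947 (7.39%) higher and 704 (5.49%) lower in R1. At least a 4-fold difference was found for 340 of them, 8-fold for 108 and 16-fold for 38, of which 25 were higher and 13 lower in R1. The median difference over all tested genes was -0.04. Without the 2-fold minimum, 8058 genes (62.9%) passed the adjusted p, so the minimum sets the number of calls. Arrays correlated across genes at 0.996 to 0.997 within R1, at 0.998 within NmB6D2 and at 0.933 to 0.937 between the lines. No array stood apart. The hybridisation controls averaged 9.91 in R1 and 10.01 in NmB6D2, and the actin 3' minus 5' signal, a sign of RNA quality, was 0.53 in R1 and 0.51 in NmB6D2. Among 168 called genes checked singly, the arrays of R1 and NmB6D2 overlapped for 0. The call itself made this near certain, so it adds no support. Some called genes named below, such as Fgf5 and Foxd3, were not in this set.

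**Figure D1:**
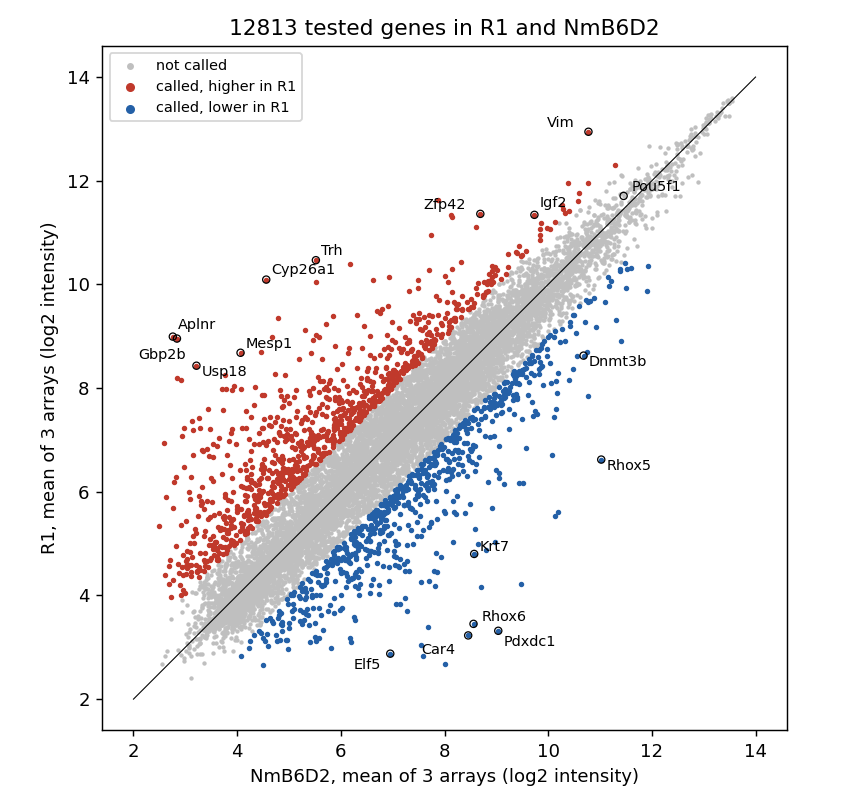
Mean log2 intensity of each of the 12813 tested genes, with R1 on the vertical axis and NmB6D2 on the horizontal axis. Red points were called higher in R1, blue points lower in R1 and grey points were not called; the line marks equal levels. Aplnr, Gbp2b and Usp18 lie above 8 in R1 and below 4 in NmB6D2, and Rhox6, Car4 and Pdxdc1 lie on the opposite side.

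Genes of the primitive streak and early mesoderm gave some of the largest rises in R1. Of 17 mesendoderm genes on the array, 14 were tested, and 10 were called higher and 0 lower in R1, with a median difference of 2.21. Aplnr, the receptor for the apelin peptides and a marker of early mesoderm, was at least 35-fold higher, and Mesp1, a transcription factor of the first cardiac mesoderm, was 24.5-fold higher. The mean level of the 14 genes ran from 6.35 to 6.48 on the R1 arrays, against 3.99 to 4.07 on the NmB6D2 arrays. The 10 genes called higher are 71.4% of the list's tested genes, against 7.39% of all tested genes. Several, such as Aplnr and Fgf8, passed the filter on low values through R1 alone, so the count describes them and no more.

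Aplnr had 8.94, 9.18 and 8.86 in R1, against 2.77, 2.67 and 2.84 in NmB6D2 (6.23 ± 0.10 SE, adjusted p = 6.3e-15 by limma). Its second probe set gave a difference of 1.43. In OpB6D2, FpB6D2 and FpB6CBA its means were 2.74, 2.88 and 2.78, so R1 was the 1 line above the filter value. Mesp1 had 8.71, 8.84 and 8.49 in R1, against 4.11, 4.28 and 3.81 in NmB6D2 (4.62 ± 0.18 SE, adjusted p = 4.9e-11 by limma). Fgf8, a growth factor secreted by the streak, had 7.06, 7.35 and 6.79 in R1, against 2.95, 2.90 and 2.98 in NmB6D2 and was at least 9.21-fold higher. The R1 arrays stood far above the rest for each of these genes.

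The homeobox genes of the streak were likewise higher in R1. Evx1 had 6.94, 7.49 and 7.18 in R1, against 3.43, 3.33 and 3.67 in NmB6D2, and Mixl1 had 6.88, 6.72 and 6.86 in R1, against 3.31, 3.51 and 3.43 in NmB6D2. Lhx1, which acts in the anterior streak and the organiser, varied between the R1 arrays, with 6.44, 5.53 and 6.88, against 3.13, 3.11 and 3.10 in NmB6D2 (3.17 ± 0.23 SE, adjusted p = 2.9e-08 by limma). Its lowest R1 array still lay above all NmB6D2 arrays. Eomes, a T-box factor of both the streak and the trophoblast, had 9.90, 10.28 and 10.06 in R1, against 7.50, 7.37 and 7.61 in NmB6D2, where it was already expressed, and was 6.01-fold higher. Kdr, a VEGF receptor of blood and vessel precursors, rose by 1.84 and Foxa2, a factor of definitive endoderm, by 1.23. Cer1 (0.35), Mesp2 (0.50), Cdx1 (0.31) and Msgn1 (0.12) were not called.

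**Figure D2:**
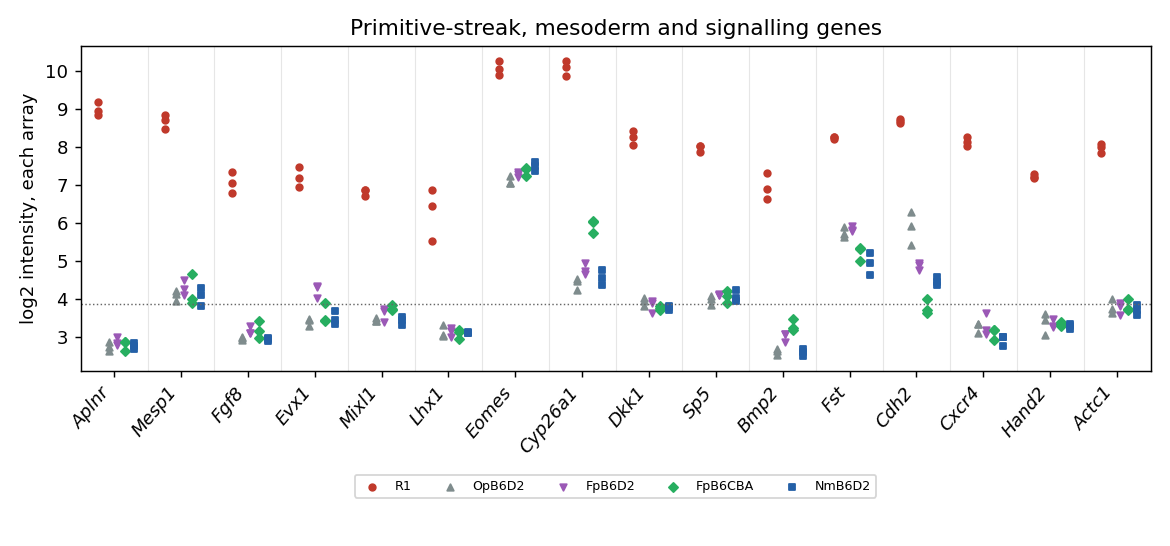
Log2 intensity on each of the 15 arrays for 16 genes of the streak, the mesoderm and its signals; each symbol is 1 array and the dotted line is the filter value of 3.864. For Aplnr, Mixl1, Dkk1, Bmp2, Cxcr4 and Hand2, the 3 R1 arrays lie above it and the NmB6D2 arrays below it.

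Genes of lateral and cardiac mesoderm were also higher in R1. This list was added after the differences between the lines had been seen. Of its 27 genes on the array, 21 were tested, and the median difference was 1.61. Of these, 14 were called higher (66.7%, against 7.39% of all tested genes) and 1 lower (4.76%, against 5.49%). Hand2 and Actc1 had NmB6D2 means below the filter value. Hand2, a transcription factor of the heart and limb, had 7.20, 7.30 and 7.20 in R1, against 3.35, 3.29 and 3.22 in NmB6D2 (3.95 ± 0.11 SE, adjusted p = 1.8e-12 by limma). Actc1, the cardiac alpha actin gene, had 8.08, 7.99 and 7.86 in R1, against 3.84, 3.57 and 3.72 in NmB6D2, and Msx2, a homeobox target of BMP, was 14.1-fold higher. Myl7, an atrial myosin light chain, rose by 2.71 ± 0.13 (SE) and Snai1, a repressor of Cdh1, by 2.06 ± 0.17. The gene that fell was Hand1 (-2.77 ± 0.11 SE), the paralogue of Hand2 that is also a trophoblast factor, and the heart factor Nkx2-5 (0.02) was not called. Cxcr4, a chemokine receptor carried by mesoderm and endoderm cells, was at least 19.6-fold higher, with 8.04, 8.15 and 8.28 in R1, against 3.00, 2.76 and 3.00 in NmB6D2. Cdh2, the neural cadherin that mesoderm cells gain, had 8.69, 8.76 and 8.64 in R1, against 4.35, 4.57 and 4.43 in NmB6D2.

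Of 10 tested neuroectoderm genes, Msx1 (2.75) and Hes1 (1.5) were called higher, both of which are also active in mesoderm. They are 20% of the list, against 7.39% of all tested genes. Pax6, a defining factor of the neural plate, was near background, with 3.38, 3.55 and 3.39 in R1, against 3.52, 3.66 and 3.70 in NmB6D2, and Sox1 lay below the filter value in both lines. Of 11 tested Hox genes, another list added then, Hoxb2 and Hoxb1 were called, both higher (18.2%, against 7.39% of all tested genes). Hoxb2 had 7.44, 7.68 and 7.58 in R1, against 3.50, 3.67 and 4.03 in NmB6D2, while Hoxb1 was weak, with 4.84, 4.91 and 3.92 in R1, against 2.92, 2.93 and 2.95 in NmB6D2.

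In the Wnt pathway, 6 of 18 tested genes were called higher in R1 and 2 lower (median 0.54). These are 33.3% and 11.1%, against 7.39% and 5.49% of all tested genes. Dkk1 and Wnt5a had NmB6D2 means below the filter value. The secreted inhibitor Dkk1 had 8.28, 8.42 and 8.07 in R1, against 3.77, 3.71 and 3.82 in NmB6D2, and was at least 21-fold higher (adjusted p = 1.1e-13 by limma). Sp5, a transcription factor induced by beta-catenin, had 8.02, 7.86 and 8.04 in R1, against 4.23, 3.95 and 4.03 in NmB6D2 (3.91 ± 0.09 SE). Axin2, a feedback inhibitor and common readout of the pathway, had 7.77, 7.91 and 7.72 in R1, against 5.74, 5.78 and 5.82 in NmB6D2 (2.02 ± 0.08 SE). These 3 are targets as well as, for Dkk1 and Axin2, inhibitors of the pathway.

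The ligand gene Wnt5a was at least 7.07-fold higher in R1, with 6.60, 6.84 and 6.62, against 3.59, 3.39 and 3.42 in NmB6D2. Rspo3, a secreted protein that strengthens Wnt signals, was outside the list and among the largest rises, with 7.24, 7.29 and 7.14 in R1, against 3.07, 2.93 and 2.90 in NmB6D2. Porcn, the enzyme that attaches a lipid to Wnt ligands, was lower, with 5.52, 5.57 and 5.67 in R1, against 8.01, 8.03 and 7.99 in NmB6D2 (-2.42 ± 0.05 SE, adjusted p = 1.7e-13 by limma). Wnt7b fell by 1.73. The transducers Ctnnb1 (0.26), Lef1 (0.20) and Tcf7l1 (-0.40) were not called.

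In the BMP and TGF-beta family, 12 of 24 tested genes were called higher in R1 and 0 lower, with a median of 1.00. The rises are 50% of the list, against 7.39% of all tested genes. Bmp2 and Nog had NmB6D2 means below the filter value. The ligand gene Bmp2 had 6.63, 7.32 and 6.89 in R1, against 2.67, 2.49 and 2.60 in NmB6D2 (4.37 ± 0.14 SE, adjusted p = 4.9e-12 by limma). Bmp4, a ligand gene that both lines expressed, was not called (0.57 ± 0.07 SE). The Id genes, direct targets of BMP, rose for Id1 (1.10 ± 0.06 SE), Id3 (1.95 ± 0.08) and Id4 (2.32 ± 0.10) but not for Id2, which had -0.93. The BMP antagonist Nog was at least 2.55-fold higher. On the activin side, Inhba, which encodes a subunit of activin, had 9.50, 9.38 and 9.37 in R1, against 6.17, 6.37 and 6.41 in NmB6D2, and Fst, whose product binds activin, had 8.26, 8.27 and 8.22 in R1, against 4.64, 5.21 and 4.94 in NmB6D2. Tgfb1 rose by 2.44 ± 0.10 (SE). Ligands, antagonists and targets were thus all among the genes that rose.

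Of 13 tested genes of Nodal signalling, 1 was called higher (7.69%, against 7.39% of all tested genes). It was the feedback inhibitor Lefty1, with 9.71, 9.59 and 9.66 in R1, against 7.98, 8.04 and 8.14 in NmB6D2. Nodal itself differed by 0.31 and its co-receptor Tdgf1 by -0.84, neither called. Among FGF and ERK genes, 6 of 16 were called higher (37.5%) and 2 lower (12.5%), against 7.39% and 5.49% of all tested genes. The ERK phosphatase Dusp4 was 7.61-fold higher and Egr1, an immediate early gene, 6.12-fold higher (8.72, 8.73 and 8.90 in R1, against 5.95, 6.17 and 6.38 in NmB6D2). The feedback inhibitors Spry4 (1.25) and Il17rd (1.35) also rose, and the receptor gene Fgfr2 fell (-1.21). With the mean of all probe sets of a gene, 3 of the 6 were called, and Spry4, Il17rd and Fgfr2 missed the 2-fold minimum. That mean, here and below, also takes in probe sets too low to pass the filter, which can shrink a difference. Dusp6 (0.21), Spry2 (0.57) and Etv5 (0.29), other readouts of ERK, were not called.

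Retinoic acid genes were called in both directions. The enzyme Cyp26a1, which degrades retinoic acid and is itself induced by it, had 9.89, 10.27 and 10.12 in R1, against 4.55, 4.37 and 4.77 in NmB6D2, and was 46.3-fold higher (adjusted p = 3.7e-13 by limma). The means of OpB6D2, FpB6D2 and FpB6CBA were 4.41, 4.79 and 5.94. The binding proteins Crabp1 (1.67) and Crabp2 (1.64) rose, and so did Rdh10 (1.54), Meis2 (1.62) and Hoxb1. The receptor gene Rarg fell (-1.31), as did Stra8, a target in germ cells, and Rara (0.07) was not called. In all, 6 of 15 tested genes were called higher (40%) and 2 lower (13.3%), against 7.39% and 5.49% of all tested genes. Trh, the thyrotropin-releasing hormone gene, had 10.59, 10.30 and 10.51 in R1, against 5.57, 5.55 and 5.44 in NmB6D2, and was 30.9-fold higher.

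Of 39 interferon-stimulated genes on the array, 31 were tested, and 14 were called higher in R1 (45.2%) and 0 lower, with a median of 0.73. Over all tested genes 7.39% were called higher. Usp18, Gbp3 and Rtp4 had NmB6D2 means below the filter value, so a high level in R1 could bring such genes into the tested set. Interferons bind receptors on the cell surface and induce target genes that encode antiviral and antigen-presenting proteins. ES cells are known for a weak response to interferon. The rises included the GTPases Gbp2, Gbp3, Irgm1 and Igtp, the Isg15 protease Usp18, the antiviral membrane protein Ifitm1 and the immunoproteasome subunit Psmb8. The mean level of the 31 genes ran from 6.42 to 6.48 in R1, against 5.12 to 5.14 in NmB6D2 and 5.01 to 5.49 on the arrays of the other lines.

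The 300-base RefSeq promoter windows of 4 of these genes and of Gbp2b, a related GTPase gene outside the list, are shown because the element known from interferon targets occurred both in genes that rose and in genes that did not. Capitals mark the core of the interferon-stimulated response element, searched as GAAA and a further GAAA with any 2 bases between them, and TTCNNNGAA, the gamma-activated site, on either strand, and matches may overlap. Irgm1 (chr11:48871371-48871670, minus strand), Gbp2b (chr3:142594597-142594896, plus strand) and Gbp2 (chr3:142620413-142620712, plus strand) rose, whereas Ifit3 (chr19:34583279-34583578, plus strand) and Oas1a (chr5:120907476-120907775, minus strand) were not called. Coordinates are those of GRCm38.p6.
Irgm1: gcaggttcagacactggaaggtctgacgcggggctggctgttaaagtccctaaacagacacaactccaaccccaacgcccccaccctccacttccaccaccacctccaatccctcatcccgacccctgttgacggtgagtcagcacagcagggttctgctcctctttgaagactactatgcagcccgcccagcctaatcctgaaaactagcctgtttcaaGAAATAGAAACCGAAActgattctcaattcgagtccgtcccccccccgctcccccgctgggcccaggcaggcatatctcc
Gbp2b: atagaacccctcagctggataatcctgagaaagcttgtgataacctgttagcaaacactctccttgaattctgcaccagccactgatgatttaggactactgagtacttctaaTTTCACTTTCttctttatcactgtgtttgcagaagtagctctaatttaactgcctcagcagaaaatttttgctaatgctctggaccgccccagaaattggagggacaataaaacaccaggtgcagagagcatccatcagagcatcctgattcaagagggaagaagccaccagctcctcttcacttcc
Gbp2: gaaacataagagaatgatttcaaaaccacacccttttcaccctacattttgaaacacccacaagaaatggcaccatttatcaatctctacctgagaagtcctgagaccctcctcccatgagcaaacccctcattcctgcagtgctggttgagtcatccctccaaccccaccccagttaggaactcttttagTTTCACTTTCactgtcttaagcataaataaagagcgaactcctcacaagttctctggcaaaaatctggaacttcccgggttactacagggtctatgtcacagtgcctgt
Ifit3: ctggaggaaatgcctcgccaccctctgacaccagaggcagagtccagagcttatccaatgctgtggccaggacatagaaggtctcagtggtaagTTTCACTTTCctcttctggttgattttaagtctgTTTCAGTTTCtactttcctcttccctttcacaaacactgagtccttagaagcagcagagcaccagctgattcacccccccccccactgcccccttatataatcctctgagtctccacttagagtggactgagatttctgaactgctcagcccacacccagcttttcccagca
Oas1a: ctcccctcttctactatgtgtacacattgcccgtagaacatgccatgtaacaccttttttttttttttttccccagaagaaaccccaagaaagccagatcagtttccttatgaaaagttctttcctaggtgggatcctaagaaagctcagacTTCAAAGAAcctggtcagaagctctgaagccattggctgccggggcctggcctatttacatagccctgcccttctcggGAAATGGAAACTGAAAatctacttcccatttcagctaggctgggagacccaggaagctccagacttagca
Irgm1, Ifit3 and Oas1a each held 2 matches to the response element core, and Gbp2b and Gbp2 held 1 each. Among 13 windows of 11 list genes that rose, 5 held it, against 8 of 14 windows of 13 list genes that were not called and 3.44% of all 32851 windows. TTCNNNGAA was present in 4 of the 13 windows and 4 of the 14, against 8.30% of all windows. Among the 13201 windows of tested genes, the set the list genes come from, 2.67% held the core and 6.6% held TTCNNNGAA. The share of windows with the response element core was 38.5% for genes that rose and 57.1% for genes that were not called, so both exceeded the share over all windows. No test was made of these shares. A match is a description of these letters and not a binding site.

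Irgm1 had 8.94, 8.90 and 9.09 in R1, against 4.65, 4.55 and 4.81 in NmB6D2 (4.31 ± 0.11 SE, adjusted p = 6.4e-13 by limma). Gbp2b had 8.83, 9.14 and 8.91 in R1, against 2.78, 2.89 and 2.85 in NmB6D2, and was at least 34.1-fold higher. Its neighbour Gbp2 had 8.81, 8.62 and 8.62 in R1, against 5.24, 5.41 and 5.62 in NmB6D2. The GTPase genes of this cluster are related, and the Gbp2 probe set may match several transcripts, but a second Gbp2 probe set gave 3.57. Usp18, which removes Isg15 from proteins and limits interferon signals, had 8.36, 8.59 and 8.35 in R1, against 3.18, 3.33 and 3.13 in NmB6D2. Ifitm1 was expressed in both lines and was 13.5-fold higher in R1, at 11.51, 11.70 and 11.69, against 7.88, 7.93 and 7.81 in NmB6D2. Irf1, a transcription factor of the interferon response, had the smallest rise of the 14, with 1.05 ± 0.06 (SE), and dropped to 0.97, below the 2-fold minimum, when each array was centred on its median.

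Xaf1, an apoptosis gene induced by interferon, had 9.32, 9.30 and 9.44 in R1, against 4.71, 4.91 and 4.72 in NmB6D2, but its second probe set differed by 0.41. Its mean in FpB6D2 was 8.01, so R1 was not alone in a high level. Ifit3, Irf7 and Rsad2, typical targets of type I interferon, had means below the filter value in R1, and Ifit3 had 3.73, 3.45 and 3.67 in R1, against 3.76, 3.55 and 3.79 in NmB6D2. Oas1a, the gene of an enzyme that senses viral RNA, had 5.87, 5.78 and 6.05 in R1, against 5.95, 5.92 and 5.73 in NmB6D2, and was highest in the other lines (6.80, 6.97 and 7.27 in OpB6D2, FpB6D2 and FpB6CBA). The genes that did not rise thus included several at background in both lines.

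**Figure D3:**
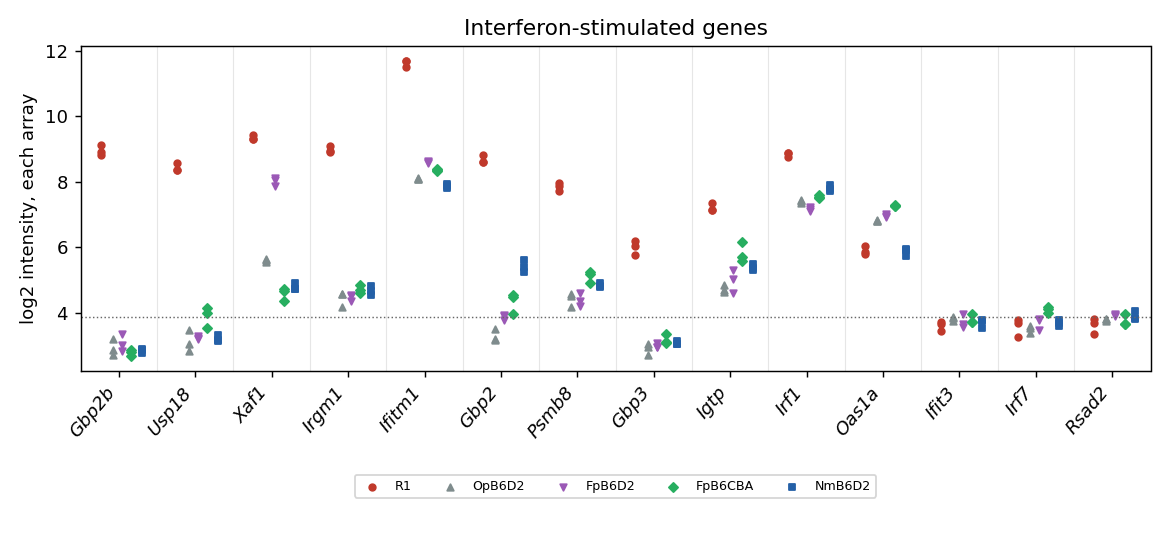
Log2 intensity on each of the 15 arrays for 14 interferon-stimulated genes, of which Gbp2b is outside the list; each symbol is 1 array and the dotted line is the filter value of 3.864. The first 10 genes were called higher in R1 and the last 4, Oas1a, Ifit3, Irf7 and Rsad2, were not called.

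Of 14 tested genes of MHC class I and antigen processing, 4 were called higher (28.6%, against 7.39% of all tested genes) and 0 lower. B2m, the invariant chain of class I molecules, had 10.12, 10.02 and 10.02 in R1, against 8.82, 9.03 and 8.94 in NmB6D2 (1.12 ± 0.06 SE, adjusted p = 1.5e-09 by limma). Psmb8 was 8.06-fold higher, Erap1, a peptide-trimming enzyme, 3.02-fold and Psmb10 2.27-fold. The class I heavy chains H2-D1 (0.95 ± 0.05 SE) and H2-K1 (0.69 ± 0.07 SE) passed the adjusted p without reaching the 2-fold minimum. The other measured probe sets of H2-D1 disagreed in sign, running from -1.02 to 0.99, while those of H2-K1 gave 0.46 and 0.92. These heavy chains are among the genes that differ in sequence between inbred strains, and whether such differences lie under these probe sets was not tested. The peptide transporter gene Tap1 had -0.90 and was not called.

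Matrix and mesenchymal genes used as markers of fibroblasts and feeder cells were higher in R1 for 17 of 34 tested genes and lower for 0. The rises are 50% of the list, against 7.39% of all tested genes, and the median was 0.99. Vim, an intermediate filament of mesenchymal cells, had 13, 12.91 and 12.92 in R1, against 10.71, 10.81 and 10.81 in NmB6D2 (2.17 ± 0.08 SE, adjusted p = 1.8e-11 by limma). The collagen gene Col5a1 had 9.50, 9.63 and 9.43 in R1, against 6.63, 6.94 and 6.82 in NmB6D2, Col3a1 was 6.28-fold higher and Col1a1 4.12-fold higher. Of the defining markers, Col1a1, Col1a2 (1.54 ± 0.14 SE) and Col3a1 rose, while Postn (0.95), Thy1 (-0.29) and Dcn (0.12) were not called. Lum was at 2.71 in R1 and 2.72 in NmB6D2 and was not tested. Thy1, a surface protein of fibroblasts, had 6.02, 5.99 and 5.85 in R1, against 6.16, 6.23 and 6.33 in NmB6D2, a difference that missed the threshold (adjusted p = 0.088 by limma). The summed list averaged 7.90 to 8.01 on the R1 arrays, against 6.90 to 7.01 on the NmB6D2 arrays and 7.34 to 7.88 on those of the other lines. Several of these genes are also made by mesoderm. The part of fibroblast RNA in the differences of the mesoderm, interferon and matrix genes was not tested.

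Genes of epithelial cells tended to be lower in R1. Of 29 tested genes of epithelial junctions and keratins, 13 were called lower in R1 and 2 higher, with a median of -0.84. These are 44.8% and 6.9%, against 5.49% and 7.39% of all tested genes. Krt7, a keratin of simple epithelia, had 4.70, 4.63 and 5.07 in R1, against 8.53, 8.58 and 8.60 in NmB6D2 (-3.77 ± 0.11 SE, adjusted p = 3.1e-12 by limma). Esrp1, a splicing factor of epithelial cells, had 4.00, 4.10 and 4.44 in R1, against 7.75, 7.86 and 7.82 in NmB6D2, and the tight junction gene Cldn7 had 6.08, 6.22 and 6.23 in R1, against 9.46, 9.46 and 9.38 in NmB6D2. The junction genes Cldn3 (-2.36), Cldn4 (-2.18) and Ocln (-2.26) fell too. Grhl2, a regulator of such genes, fell, with -2.06 ± 0.17 (SE), and Epcam, an adhesion molecule of epithelial and ES cells, with -1.12 ± 0.05; both missed the 2-fold minimum with the mean of their probe sets. Cdh1, the epithelial cadherin, had 10.08, 9.83 and 10.03 in R1, against 10.93, 10.90 and 10.84 in NmB6D2, a difference of -0.91 ± 0.06 that missed the 2-fold minimum. Krt8 (-0.19) and Krt18 (-0.40), the keratins of the early embryo, were not called, and the desmosome gene Dsp was 6.44-fold higher in R1, at 9.59, 9.69 and 9.49, against 6.85, 6.88 and 6.99 in NmB6D2.

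R1 was not the lowest line for this programme. The 29 genes averaged 7.17 to 7.22 on the R1 arrays, 6.47 to 6.60 on those of OpB6D2 and FpB6D2, 8.09 to 8.26 on those of FpB6CBA and 8.20 to 8.24 on those of NmB6D2. Krt7 averaged 4.49, 5.91 and 7.88 in OpB6D2, FpB6D2 and FpB6CBA.

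Trophectoderm factors were lower in R1 for 3 of 13 tested genes (23.1%, against 5.49% of all tested genes) and higher for 1, Eomes (7.69%, against 7.39%). Elf5, a transcription factor of the trophoblast, had 2.52, 3.01 and 3.11 in R1, against 7.06, 6.75 and 7.05 in NmB6D2 (-4.08 ± 0.16 SE, adjusted p = 4.3e-11 by limma). Its means in OpB6D2, FpB6D2 and FpB6CBA were 3.04, 3.40 and 3.69, so NmB6D2 was the line with a high level. Hand1, a factor of trophoblast giant cells, had 4.52, 4.42 and 4.50 in R1, against 7.24, 7.16 and 7.35 in NmB6D2, and the X-linked placental homeobox gene Esx1 fell, with -1.99 ± 0.12 (SE). Cdx2, which defines the trophectoderm, was not called and its arrays overlapped, with 3.92, 4.45 and 4.40 in R1, against 4.30, 4.13 and 4.07 in NmB6D2, and Gata3 had -0.43.

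**Figure D4:**
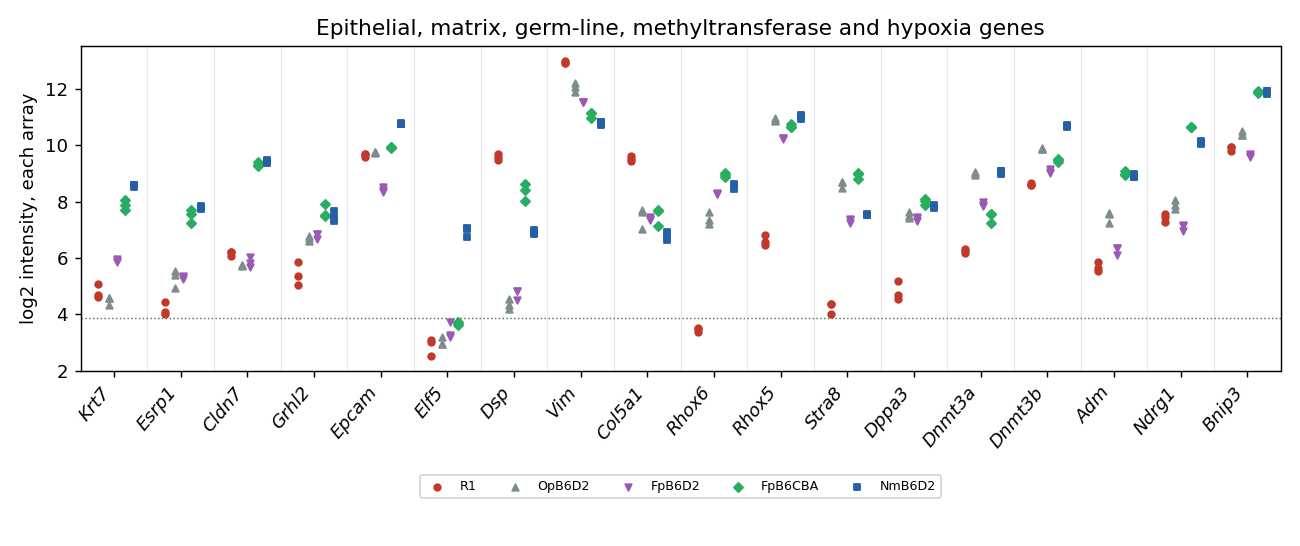
Log2 intensity on each of the 15 arrays for 18 epithelial, trophoblast, matrix, germ-line, methyltransferase and hypoxia genes; each symbol is 1 array and the dotted line is the filter value of 3.864. R1 lies above NmB6D2 for Dsp, Vim and Col5a1 and below it for the other 15 genes.

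Genes of the primitive endoderm, the yolk sac lineage, were called in both directions. Of 19 tested genes, 6 were called higher (31.6%) and 5 lower (26.3%), against 7.39% and 5.49% of all tested genes. The factors Gata4 (7.24, 7.67 and 7.30 in R1, against 4.60, 4.37 and 4.57 in NmB6D2) and Sox17 (6.11, 6.19 and 6.33 in R1, against 4.29, 4.17 and 4.36 in NmB6D2) rose, and so did the receptor gene Pdgfra (1.74). Gata6 (0.98) and Sox7 (-0.86), which also define the lineage, were not called. The endocytic receptor genes of the visceral endoderm fell, with -2.27 ± 0.26 (SE) for Cubn, -1.65 for Amn and -1.46 for Lrp2. Srgn, a proteoglycan gene, fell, with -2.33 ± 0.10 (SE). Ttr (-0.02) and Hnf4a (0.25), markers of differentiated visceral endoderm, were not called. With the mean of all probe sets, 3 of the 5 falls were called. Gata4 and Sox17 also act in definitive endoderm and heart.

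In the naive pluripotency network, 7 of 24 tested genes were called higher in R1 and 1 lower. These are 29.2% and 4.17%, against 7.39% and 5.49% of all tested genes. Tcl1, a coactivator of Akt expressed in ES cells, had 9.06, 8.96 and 9.08 in R1, against 5.41, 5.62 and 5.55 in NmB6D2 (3.51 ± 0.07 SE, adjusted p = 9.1e-14 by limma). The T-box gene Tbx3 was 7.6-fold higher, and Zfp42 (Rex1), a marker of the naive state, had 11.51, 11.22 and 11.35 in R1, against 8.69, 8.75 and 8.63 in NmB6D2. Zfp42 averaged 8.53, 9.15 and 8.22 in OpB6D2, FpB6D2 and FpB6CBA, so its level in R1 was the highest of the 5 lines. The list as a whole was not highest in R1. It averaged 8.7 to 8.8 on the R1 arrays and 8.14 to 8.19 on the NmB6D2 arrays. OpB6D2 was at 9.06 to 9.1, FpB6D2 at 9.47 to 9.52 and FpB6CBA at 8.12 to 8.24. Klf4 (1.20), Klf2 (1.25), Prdm14 (1.74) and Nr5a2 (1.65), transcription factors of the network, rose, the last of them only 0.94 with the mean of its probe sets. Esrrb (0.89) and Sall4 (0.97) lay just under the 2-fold minimum. Dppa3, which protects methylation in the early embryo, was the gene that fell, with 5.19, 4.56 and 4.70 in R1, against 7.84, 7.78 and 7.89 in NmB6D2.

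Of 13 tested core pluripotency genes, Utf1 (-1.57 ± 0.05 SE), Dppa2 (-1.41 ± 0.07) and Dppa4 (-1.06 ± 0.05), 3 chromatin-associated proteins of ES cells, fell, and Zfp42 rose. The falls are 23.1% and the rise 7.69%, against 5.49% and 7.39% of all tested genes. Primed epiblast genes moved both ways, with 7 of 19 called higher (36.8%) and 3 lower (15.8%). The largest rises were those of Cdh2 (4.24) and Fgf8 (4.12), given above with mesoderm. Fgf5, the classic marker of the primed state, rose by 1.08 but was weak, at 4.81 in R1 and 3.73 in NmB6D2. Foxd3 rose by 1.57 and Sox4 by 1.94, whereas Pou3f1 fell (-1.12) and Otx2 (0.35) was not called. The other falls were Dnmt3a and Dnmt3b. Sox4 had 0.99, below the 2-fold minimum, with the mean of its probe sets. Members of the naive and of the primed list were therefore both among the genes that rose, and members of both lists fell. In the LIF pathway, the kinase gene Jak2 rose (1.80 ± 0.09 SE), the kinase gene Pim1 fell (-1.33 ± 0.12 SE), and Stat3 (0.14), Socs3 (0.01) and Lifr (0.52) were not called.

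The de novo DNA methyltransferase genes were lower in R1. Dnmt3a had 6.19, 6.34 and 6.26 in R1, against 9.08, 9.09 and 8.96 in NmB6D2 (-2.78 ± 0.08 SE, adjusted p = 2.5e-12 by limma), and its 5 measured probe sets ran from -3.09 to -0.87. Dnmt3b had 8.67, 8.60 and 8.61 in R1, against 10.67, 10.72 and 10.66 in NmB6D2 (-2.06 ± 0.05 SE), and its second probe set gave -2.16. Their means in OpB6D2, FpB6D2 and FpB6CBA were 9.01, 7.91 and 7.45 for Dnmt3a and 9.87, 9.09 and 9.47 for Dnmt3b. The cofactor Dnmt3l (-0.38 ± 0.06 SE), the maintenance enzyme Dnmt1 (-0.18 ± 0.08) and its partner Uhrf1 (-0.15 ± 0.06) were not called. Of the demethylating enzymes, Tet2 had 0.36 and Tet3 -0.02. Tet1 had -0.67 on its brightest probe set and was not called, but its other measured probe sets gave -1.325 and -2.08, and it was called lower with the mean of all its probe sets, at -1.1. In all, 3 of 15 tested genes were lower (20%, against 5.49% of all tested genes) and 0 higher, Dppa3 being the third. With the mean of all probe sets, 4 were lower. Of 13 Polycomb repressive complex 2 genes, 1 was called lower (7.69%, against 5.49% of all tested genes). It was Ezh1 (-1.25 ± 0.12 SE), which missed the 2-fold minimum with the mean of its probe sets, and Ezh2 had -0.79.

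Germ-line genes were lower in R1 for 10 of 25 tested genes (40%) and higher for 2 (8%), against 5.49% and 7.39% of all tested genes. Many such genes are silenced by promoter methylation in somatic cells and partly expressed in ES cells. Stra8, which starts meiosis under retinoic acid, had 4.01, 4.38 and 4.38 in R1, against 7.54, 7.57 and 7.53 in NmB6D2 (-3.29 ± 0.09 SE, adjusted p = 2.5e-12 by limma). The meiotic chromosome genes Hormad1 (-2.39) and Sycp1 (-2.20) fell, as did Ddx4 (-1.82), Mael (-1.79) and Piwil2 (-1.13) of the piRNA pathway, which silences transposons. Dazl, an RNA-binding protein of germ cells, went the other way, with 8.39, 8.27 and 8.36 in R1, against 6.45, 6.59 and 6.45 in NmB6D2. NmB6D2 was the lowest line for Dazl, whose means in OpB6D2, FpB6D2 and FpB6CBA were 9.70, 9.54 and 9.44. Tex19.1, also of the germ line and high in both lines, differed by -0.03.

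The X-linked Rhox genes, a cluster of reproductive homeobox genes, gave 2 of the 15 largest falls, Rhox6 and Rhox5. Rhox6 had 3.52, 3.37 and 3.47 in R1, against 8.58, 8.46 and 8.64 in NmB6D2 (-5.11 ± 0.09 SE, adjusted p = 1.5e-14 by limma). Rhox5 remained detectable, with 6.58, 6.48 and 6.81 in R1, against 11.05, 10.94 and 11.08 in NmB6D2, and Rhox9 was 10.8-fold lower. Rhox5 averaged 10.91, 10.24 and 10.69 in OpB6D2, FpB6D2 and FpB6CBA, so R1 was the line that stood below the others. Rhox13 was not called (-0.13). Among 10 tested oocyte and maternal-effect genes, 3 fell (30%, against 5.49% of all tested genes). Nlrp4f led them (3.70, 3.55 and 2.94 in R1, against 7.76, 7.64 and 7.68 in NmB6D2). Khdc3 (-2.56 ± 0.09 SE) and Tle6 (-2.09 ± 0.12 SE), members of the subcortical maternal complex, were the other two.

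Imprinted genes, expressed from 1 parental allele, differed between these lines although both are biparental. Of 22 tested genes with a paternally expressed allele, 10 were called higher and 4 lower in R1. These are 45.5% and 18.2%, against 7.39% and 5.49% of all tested genes. With the mean of all probe sets, 6 were called higher. Plagl1, a zinc finger gene that restrains growth, had 10.17, 10.04 and 9.91 in R1, against 5.42, 5.58 and 5.57 in NmB6D2, on a probe set that may match several transcripts; the other probe set differed by 1.00. Ndn, of the Prader-Willi region, had 8.63, 8.84 and 8.84 in R1, against 6.42, 6.49 and 6.32 in NmB6D2 (2.36 ± 0.08 SE, adjusted p = 6.6e-12 by limma). Igf2, a fetal growth factor, had 11.10, 11.56 and 11.37 in R1, against 9.74, 9.68 and 9.79 in NmB6D2. It missed the 2-fold minimum with the mean of its probe sets, at 0.96, but no further probe set of Igf2 passed the filter.

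Zdbf2 (1.92), Inpp5f (1.64), Impact (1.58), Peg12 (1.53), Peg3 (1.34), Mest (1.34) and Mkrn3 (1.24) were the other rises. Peg12 (4.22 in R1, 2.69 in NmB6D2) and Mkrn3 (4.46 and 3.22) were weak, with NmB6D2 below the filter value. Averaging probe sets brought Inpp5f to 0.86, Peg3 to 0.81 and Impact to 0.49. For Inpp5f no further probe set passed the filter. Among the falls, Nnat, a membrane proteolipid gene, had 4.57, 3.91 and 4.03 in R1, against 8.66, 8.73 and 8.73 in NmB6D2 (-4.54 ± 0.15 SE, adjusted p = 1.1e-11 by limma). Sfmbt2 (-2.65 ± 0.12 SE), Slc38a4 (-1.94 ± 0.06) and Peg10 (-1.29 ± 0.27), which act in the placenta, fell as well. Snrpn, from the same region as Ndn, differed by -0.08.

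Of 28 tested genes with a maternally expressed allele, 3 were called higher and 2 lower. These are 10.7% and 7.14%, close to the 7.39% and 5.49% of all tested genes. Asb4, a gene of a ubiquitin ligase adaptor, had 8.08, 8.33 and 8.2 in R1, against 2.94, 2.83 and 2.73 in NmB6D2 (5.37 ± 0.08 SE, adjusted p = 5.9e-15 by limma), and averaged 2.92, 3.00 and 2.92 in OpB6D2, FpB6D2 and FpB6CBA. Phlda2, which restrains placental growth, had 11.32, 11.49 and 11.22 in R1, against 8.14, 8.06 and 8.15 in NmB6D2, while Cdkn1c, a cell cycle inhibitor gene of the same cluster, was 2.29-fold lower. Cobl (1.56) also rose, but only by 0.87 with the mean of its probe sets, and Dhcr7 (-1.23), an enzyme of cholesterol synthesis, fell. H13 (0.49), Grb10 (-0.35) and Meg3 (-0.44) were not called.

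Hypoxia-inducible genes were lower in R1 for 10 of 24 tested genes (41.7%, against 5.49% of all tested genes) and higher for 0. Adm, a vasodilator peptide gene, had 5.55, 5.85 and 5.65 in R1, against 8.99, 8.88 and 8.87 in NmB6D2 (-3.23 ± 0.10 SE, adjusted p = 6.5e-12 by limma). Ndrg1, a stress-induced gene, was 6.34-fold lower, Bnip3, a mitophagy receptor gene, 4.06-fold and Ero1a, an oxidase of the endoplasmic reticulum, 4.03-fold. Egln1 (-1.65) and Egln3 (-1.16), the oxygen-sensing enzymes that mark HIF for destruction and are induced by it, also fell. Slc2a1 (-0.36), Hk2 (-0.12) and Vegfa (-0.33), further targets of HIF, were not called. The list averaged 8.35 to 8.45 on the R1 arrays, against 9.21 to 9.27 on the NmB6D2 arrays. FpB6CBA was at 9.28 to 9.34, OpB6D2 at 8.24 to 8.31 and FpB6D2 at 7.87 to 7.92, so R1 lay between these lines.

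Most glycolysis genes were not called. Of 18 tested genes, the enolase gene Eno2 fell (-2.62 ± 0.19 SE) and the lactate dehydrogenase gene Ldhb rose, with 10.89, 10.97 and 11.03 in R1, against 7.64, 7.84 and 7.73 in NmB6D2. Each call is 5.56% of the list, against 5.49% lower and 7.39% higher over all tested genes. Ldha, the partner subunit of Ldhb, differed by -0.12. Of 31 oxidative phosphorylation genes, 0 were called either way by limma (Nnt 0.93, Cox7a1 -0.93), and Cox7a1 reached -1.01 after quantile normalisation. Glutathione and xenobiotic enzymes were lower for 6 of 30 tested genes (20%, against 5.49% of all tested genes) and higher for 0. Gpx2 had -1.96 ± 0.06 (SE), Nqo1 -1.48 ± 0.07 and the cystine transporter Slc7a11 -1.59 ± 0.13. Without the R1 array numbered 4, 4 of the 6 were called. With the mean of its probe sets Slc7a11 had -0.94, but no further probe set of it passed the filter. Of 22 p53 targets, Gadd45a (-1.56), Sesn1 (-1.5) and Pmaip1 (-1.32) fell and the cyclin gene Ccng1 (1.08) rose, with 0.89 for Ccng1 when its probe sets were averaged. The 3 falls are 13.6% of these targets, against 5.49% of all tested genes, and the rise is 4.55%, against 7.39%. These shares rest on 4 calls among 22 genes and were not tested. The p53 inhibitor gene Mdm2 (-0.29) and the cell cycle inhibitor gene Cdkn1a (0.88) were not called.

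Of 24 mitotic genes, 1 was called, the checkpoint kinase gene Bub1, with 9.72, 9.67 and 9.71 in R1, against 10.71, 10.79 and 10.70 in NmB6D2 (-1.04 ± 0.06 SE). That is 4.17% lower, against 5.49% of all tested genes. The list's median was -0.54, against -0.04 over all tested genes, and all 24 values were negative. The smallest of them, for Birc5, was -0.02. Of 9 tested histone genes, H2aw was called, with -1.16 (11.1% lower, against 5.49% of all tested genes). It had -0.62 with the mean of its probe sets, but no further probe set of it passed the filter. Several lists lay close to the 7.39% higher and 5.49% lower of all tested genes. These were LIF signalling, with 11.8% higher and 5.88% lower, Nodal signalling, with 7.69% higher and 0% lower, glycolysis, with 5.56% either way, Polycomb repressive complex 2, with 0% higher and 7.69% lower, and the maternally expressed imprinted genes, with 10.7% higher and 7.14% lower.

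**Figure D5:**
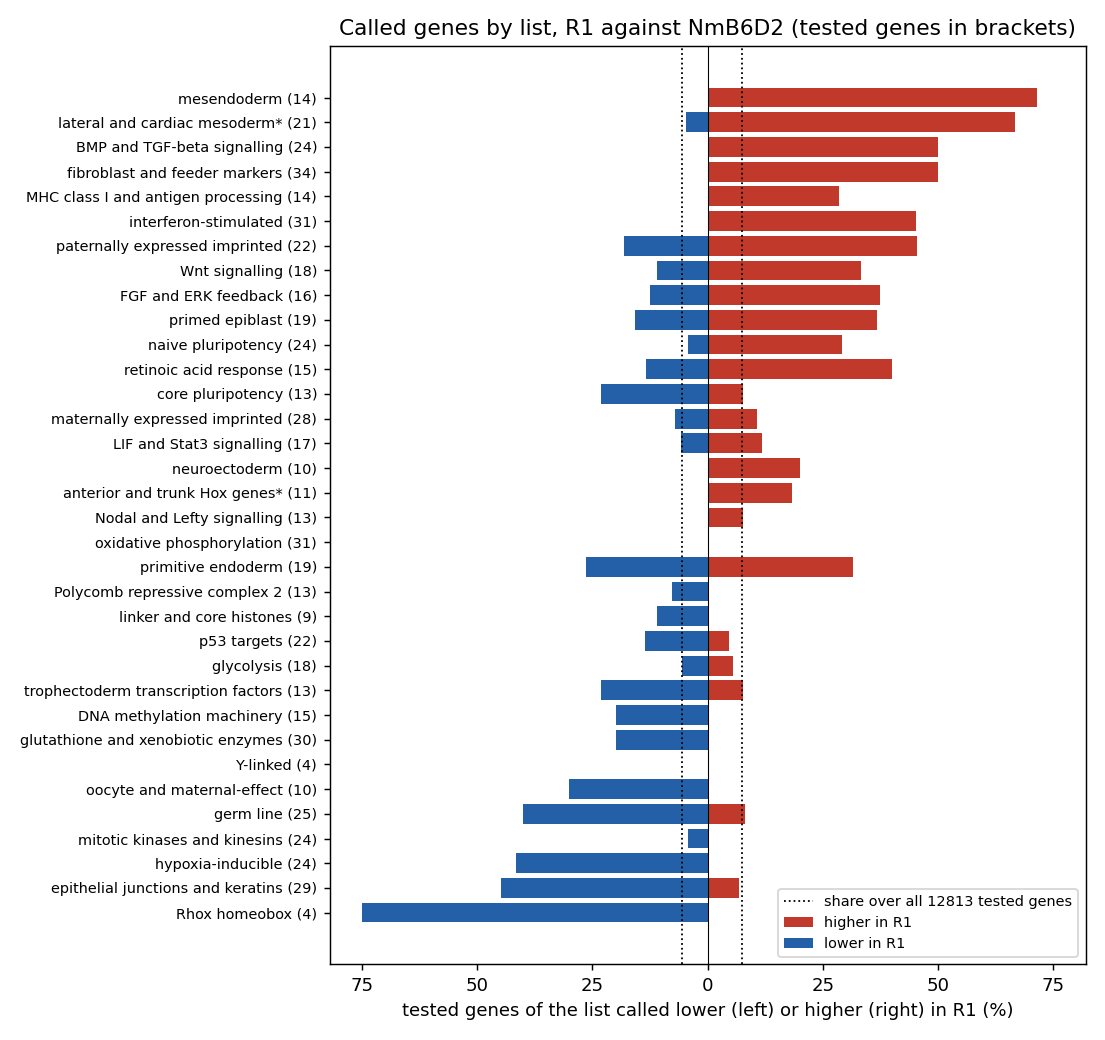
Share of the tested genes of each list called higher in R1 (red, to the right) or lower in R1 (blue, to the left), in percent, with the number of tested genes in brackets; lists are ordered by their median difference and dotted lines mark 7.39% and 5.49%, the shares over all 12813 genes. All lists were chosen with earlier results of these data known, and an asterisk marks the 2 added last. Mesendoderm stands at the top, with 71.4% higher, and the Rhox genes at the bottom, with 75% lower.

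Among the largest falls outside these lists, Pdxdc1, which encodes a decarboxylase-like protein, rested on its probe set. The probe set with the highest mean had 3.19, 3.52 and 3.24 in R1, against 8.95, 9.02 and 9.14 in NmB6D2 (-5.72 ± 0.15 SE), while the other 3 measured probe sets differed by 0.53, 0.73 and 3.28. With the mean of all probe sets its difference was -0.29 and the call was lost. Its mean was 4.02 in FpB6CBA but 8.98 in OpB6D2 and 8.85 in FpB6D2. Calml4, a calmodulin-like gene, had 4.39, 4.22 and 4.08 in R1, against 9.48, 9.46 and 9.49 in NmB6D2. Car4, a membrane carbonic anhydrase, had 3.24, 3.42 and 3.03 in R1, against 8.39, 8.48 and 8.5 in NmB6D2, and its second probe set gave -3.98. Olig1, a transcription factor of oligodendrocytes, was at least 13.1-fold lower, and Rpgrip1, a photoreceptor cilium gene, 23.9-fold lower. The potassium channel gene Kcnk1 (-3.94), Niban1 (-3.92) and the testis cytochrome c gene Cyct (-3.67) completed the named falls together with genes given above. These are the 15 largest falls once genes with clone or predicted-gene symbols are left out. Dido1, a chromatin gene named after its values were seen, had 9.21, 9.22 and 9.26 in R1, against 5.64, 5.79 and 5.73 in NmB6D2, but 0.68 with the mean of its probe sets.

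Of the 1651 called genes, 757 had further measured probe sets. For 633 of them (83.6%) every further probe set had the same sign, and for 295 (39.0%) every one also reached a log2 difference of 1. Of the 1196 further probe sets, 8 had the opposite sign with a difference of at least 1. Probe sets of a gene share the same RNA and are not replicates.

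Called genes lay on all 19 autosomes and on the X chromosome, while the 4 tested genes of the Y chromosome were not called. On the 19 autosomes between 10.3% and 15.6% of tested genes were called, and their median differences ran from -0.108 to 0.082. On the X chromosome 43 of 414 tested genes were called higher and 34 lower (18.6%), with a median of 0.041. In gene order, 22 runs of at least 3 neighbouring tested genes were called in the same direction, 16 higher and 6 lower. The longest was the run of 4 genes Gm9, Rhox5, Rhox6 and Rhox9 on the X chromosome, lower in R1. Gbp3, Gbp2b and Gbp2 on chromosome 3, Pdgfra, Kit and Kdr on chromosome 5, and the imprinted genes Ndn, Mkrn3 and Peg12 on chromosome 7 were runs of higher genes. Pdgfra, Kit and Kdr are related receptor tyrosine kinase genes.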

How the data were processed

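The authors deposited a table of log2 intensities of 45101 probe sets. The submitters' processing notes name affy and RMA, with no version or setting. The log base is not given there and was judged from the range, 1.99 to 13.96. The array annotation gave 1 symbol to 34945 probe sets, several to 932 and none to 9160. Symbols were updated through the RefSeq GRCm38.p6 gene table (18032 of 18193 genes matched), which also gave chromosomes, gene order and promoters. Where a gene had several probe sets, the one of highest mean intensity (15 arrays) stood for it. limma 3.58.1 (R 4.3.3) fitted a mean for each of the 5 lines, with the contrast R1 minus NmB6D2. Folds against a mean below 3.864 are lower bounds computed against that value. SE is that of the fit. The number of arrays limits the precision. Tested on simulated data of 12813 genes, it recovered 100% of 100 genes shifted by 1.5 on the log2 scale, with 0 false calls. The simulated noise was independent, had the spread between arrays and held no other line differences. It therefore checks the computation and says nothing of false calls between lines of 1 derivation each.

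Gene lists (34, with 680 of 764 entries on the array, and 2 more lists) and members were chosen with earlier results of these data known, and lists are described by counts and medians without a test. Named genes include the 15 largest rises and the 15 largest falls, leaving out clone and predicted-gene symbols. They also include up to 5 called members a list, all called imprinted genes, the Y-linked genes, Xist, Pou5f1, Nanog and Sox2. Further list members were named after their values were seen. The alternatives were other filters, probe set rules, scalings, variance models, thresholds, a replicate block and leaving out each array. Figures were drawn with matplotlib 3.10.9.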

Additional observations from a re-analysis of the deposited data

How the results depend on the processing

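The count of 1651 called genes stayed between 1621 and 1662 with no filter, a stricter filter, no probe sets that may match several transcripts, quantile normalisation, median centring, the 6 arrays alone, other variance models, array weights and an adjusted p under 0.01, and was 1182 with the mean of all probe sets of a gene. Leaving out 1 array at a time gave 1640 to 1681. With treat, which tests against a log2 difference of 1, 914 genes were called, 537 higher and 377 lower in R1. Quantile normalisation split the calls into 874 higher and 777 lower, and median centring into 834 and 820, against 947 and 704 as deposited. Averaging probe sets gave 3 FGF and ERK genes called higher (6 with 1 probe set), 3 primitive endoderm genes called lower (5) and 6 paternally expressed imprinted genes called higher (10). The mean of all probe sets also takes in those too low to pass the filter, and Igf2, Inpp5f, Slc7a11 and H2aw had no further measured one. Of the 168 called genes checked singly, 20 lost their call with that mean. In fits without 1 array, 3 of these genes lost their call: Alcam had 0.92 without R1 replicate 3, Gstm5 -0.98 without R1 replicate 4 and Fgfr2 -0.92 without R1 replicate 5. No difference of these genes changed sign under the 18 alternatives. R1 and NmB6D2 share the replicate numbers 3 and 4, whose arrays correlated in their deviations from the line means at 0.007 and 0.062, so the numbers were not taken as a pairing; the fit with a replicate block called 1688 genes, and Irf1 lost its call there, at 0.98.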

Other observations

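Probe sets without a single gene symbol were left out of the comparison. Of 1956 measured probe sets with no symbol, 97 were called higher and 67 lower in R1 than in NmB6D2 (8.38%), and of 608 with several symbols, 38 were called higher and 26 lower (10.5%). Of 21960 measured probe sets with 1 symbol, 13.1% were called. The share was thus lowest among probe sets with no symbol, and no gene can be given for them here. A probe set left out in this way averaged 9.91 in R1 and 3.06 in NmB6D2. Its difference of 6.85 was larger than that of Aplnr (6.23). Further probe sets left out differed by 3.93, -3.48 and -3.24. List genes measured only by such probe sets were not assessed.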
